A study of Mus musculus with 6 samples.

Results

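Lysosomal hydrolases and lysosomal membrane proteins were examined in skeletal muscle of mice with a deletion of the proteasome subunit Rpt3 targeted to muscle fibers. The set holds 46 genes, listed by symbol: the enzymes that split lipids, sugars and phosphate esters inside the lysosome, their activator proteins, the glycoproteins and transporters of the lysosomal membrane, and the receptors and adaptors that deliver new enzymes. Cathepsins and the proton pump were left out of the set. A gene was tested where a probe named for it was not flagged near background on at least 3 of 6 arrays, which held for 38 of the 46 genes, among 14732 tested genes in all.

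Total RNA from 3 Rpt3-/- mice, labelled Rpt3 null, and 3 Rpt3+/+ mice, labelled control, was measured on single-colour CodeLink mouse whole-genome arrays. All mice were females of 6 weeks, and the labels give both groups the strain name mlc1f-Cre/ Rpt3-floxed. The paper gives the controls as carrying Mlc1f-Cre with wild-type Rpt3, so the Cre driver is shared by both groups. The Mlc1f promoter drives Cre in fast-twitch skeletal muscle fibers, and whole muscle also holds cells in which it is not active. The labels name the tibialis anterior and the paper names the gastrocnemius as the muscle. The labels number the samples of each group, taken here as separate mice, and p-values measure the spread between these samples.

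The lysosome breaks down material that arrives by endocytosis, phagocytosis and autophagy. Its soluble enzymes receive a mannose 6-phosphate tag in the Golgi, which receptors recognize and pass to endosomes with the help of adaptor proteins. Products leave through transporters of a membrane that is lined by heavily glycosylated proteins. Loss of single lysosomal proteins causes lysosomal storage diseases, among them Pompe disease (Gaa) and Danon disease (Lamp2), which affect skeletal muscle. Many lysosomal genes carry in their promoters a short E-box motif of the coordinated lysosomal expression and regulation (CLEAR) network, which the transcription factors Tfeb, Tfe3 and Mitf bind.

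Values are log2 intensities after background correction and quantile normalization, and a difference is the mean of the Rpt3-/- arrays minus the mean of the Rpt3+/+ arrays. The share of probes above background was 69.2% to 72.7% on the Rpt3-/- arrays and 57.0% to 74.5% on the Rpt3+/+ arrays, with Rpt3+/+ mouse 2 the dimmest. Psmc4, the gene that encodes Rpt3, had log2 intensities of 10.01, 9.78 and 9.85 in Rpt3-/- mice, against 11.16, 10.91 and 11.06 in Rpt3+/+ mice. Its difference was -1.17 (SE 0.13, limma adjusted p = 0.000310), and its other tested probe, which was not called, differed by -0.23. Where these probes lie relative to the deleted segment was not determined.

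Of the 38 tested lysosomal genes, 10 were called higher in Rpt3-/- mice, that is 26.3%, and 1 was called lower, that is 2.63%, at an adjusted p under 0.05 in limma. Among all 14732 genes, 12.7% were called higher and 6.56% lower. The other 27 lysosomal genes were not called. The genes called higher were Cd63, Man2b1, Npc2, Acp5, Hexa, Pla2g15, Ppt1, Slc17a5, Fuca1 and Ap1s1, and the gene called lower was Gla. The median difference over the 38 genes was 0.16, against -0.01 over all tested genes, and 21 of the 38 differences were above 0. With all arrays centred on Actb the list's median turned to -0.50, where that of all genes was -0.72. For 11 of the 38 genes every Rpt3-/- array lay above every Rpt3+/+ array, that is 28.9% against 21.2% of all tested genes. For 5 genes every Rpt3-/- array lay below, that is 13.2% against 15.6%.

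**Figure D1:**
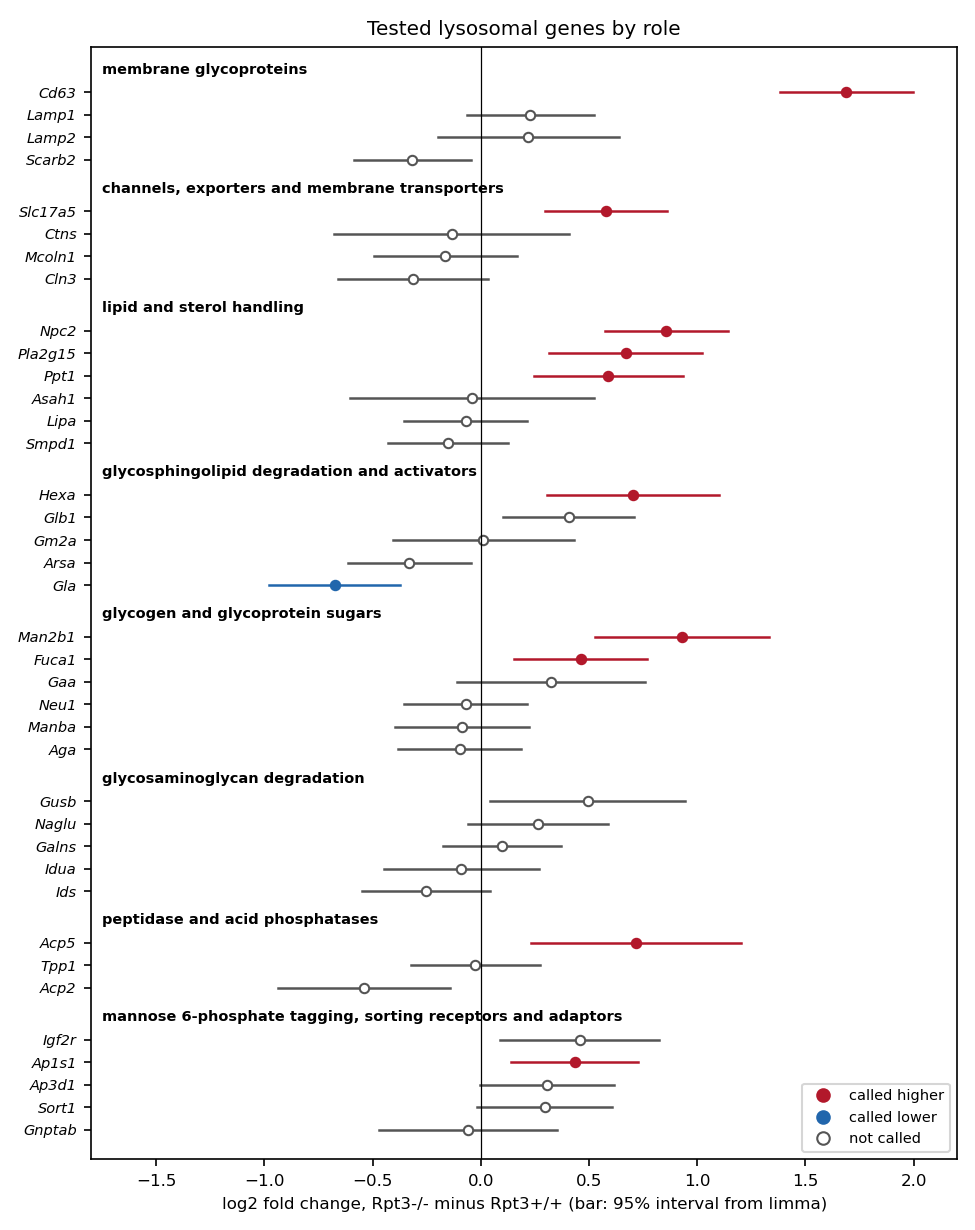
Difference in log2 intensity (horizontal axis, Rpt3-/- minus Rpt3+/+) for the 38 tested lysosomal genes, grouped by role, with bars for the 95% interval from limma and filled points for called genes. The 10 genes called higher come from 7 of the 8 roles, no glycosaminoglycan enzyme was called, and Gla is the only gene called lower.

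Part of the members hold the CLEAR core in their promoters. Windows from 250 bases before to 50 bases after the annotated start were taken from RefSeq on GRCm38.p6 and matched 39 of the 46 genes. Some genes have windows at several annotated starts, and a gene was counted where any of its windows held the motif. The E-box core CACGTG reads the same on both strands. It was found for 11 of the 39 genes (28.2%), against 8.09% of all 27025 genes with a window and 10.6% of the tested genes among them. The longer form TCACGTGA, which contains the core and also reads the same on both strands, was found for 5 genes (12.8%), against 1.12% of all genes. The full CLEAR palindrome of 10 bases, which contains both shorter motifs, was found for 2 genes, Cln3 and Igf2r. Of the 10 genes called higher, 0 held the core in any window. It was held by 8 of the 23 genes not called that had a window, and by Gla. A window without a match says only that these letters are not within it.

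The window of Gla, the gene called lower, is shown with those of Igf2r and Lamp1, which hold the motif and were not called, and of Cd63 and Npc2, the genes called higher with the lowest adjusted p, which hold none. Capitals mark the CACGTG core, extended to TCACGTGA or to the full palindrome where these are present.
Gla, chrX:134600956-134601255, minus strand: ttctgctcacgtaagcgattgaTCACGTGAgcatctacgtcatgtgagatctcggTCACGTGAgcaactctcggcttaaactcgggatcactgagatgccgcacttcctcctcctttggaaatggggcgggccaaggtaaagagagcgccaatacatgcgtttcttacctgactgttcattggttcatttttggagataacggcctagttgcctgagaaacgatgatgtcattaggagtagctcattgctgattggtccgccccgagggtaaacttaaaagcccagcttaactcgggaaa
Igf2r, chr17:12769657-12769956, minus strand: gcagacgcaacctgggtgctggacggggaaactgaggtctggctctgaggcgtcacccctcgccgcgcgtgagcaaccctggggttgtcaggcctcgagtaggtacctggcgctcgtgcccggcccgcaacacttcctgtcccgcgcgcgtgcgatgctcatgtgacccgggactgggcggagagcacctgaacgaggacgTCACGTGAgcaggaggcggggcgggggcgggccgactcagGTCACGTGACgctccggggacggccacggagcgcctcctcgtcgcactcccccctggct
Lamp1, chr8:13158911-13159210, plus strand: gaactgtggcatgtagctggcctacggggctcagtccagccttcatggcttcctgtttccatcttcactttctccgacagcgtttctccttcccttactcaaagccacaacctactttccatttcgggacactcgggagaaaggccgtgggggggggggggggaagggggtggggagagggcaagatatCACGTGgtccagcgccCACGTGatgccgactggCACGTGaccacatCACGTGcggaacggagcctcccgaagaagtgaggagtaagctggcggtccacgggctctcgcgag
Cd63, chr10:128909095-128909394, plus strand: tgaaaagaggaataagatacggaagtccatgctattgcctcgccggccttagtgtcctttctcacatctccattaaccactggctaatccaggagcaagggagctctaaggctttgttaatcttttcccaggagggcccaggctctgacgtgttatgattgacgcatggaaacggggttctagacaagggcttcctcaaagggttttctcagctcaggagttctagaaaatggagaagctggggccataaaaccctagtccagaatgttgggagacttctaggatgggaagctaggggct
Npc2, chr12:84773063-84773362, minus strand: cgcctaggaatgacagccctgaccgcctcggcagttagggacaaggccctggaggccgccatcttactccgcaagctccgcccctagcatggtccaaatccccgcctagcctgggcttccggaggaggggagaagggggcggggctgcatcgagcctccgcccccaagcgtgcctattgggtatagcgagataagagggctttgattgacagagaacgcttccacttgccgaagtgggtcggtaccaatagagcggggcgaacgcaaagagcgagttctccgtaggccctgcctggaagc

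The cores of Gla began 227 and 194 bases before the start, farther upstream than those of Igf2r, which began 48 and 7 bases before it. Lamp1 held 4 cores within its window, the first of them 61 bases before the start, and its difference was 0.23. Mcoln1 and Cln3, with 2 cores each, differed by -0.16 and -0.31 and were not called either. The window at the other annotated start of Cln3 held no core. The remaining windows with a core were those of Glb1, Naglu, Gaa and Arsa, which were not called, and of Sgsh and Gnptg, which were not tested.

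Among the membrane glycoproteins Cd63 stood out, the gene of a tetraspanin that is found in late endosomes, lysosomes and secreted vesicles. Its log2 intensity was 12.02, 11.86 and 12.06 in Rpt3-/- mice, against 10.36, 10.42 and 10.09 in Rpt3+/+ mice. The groups lay apart by more than the whole range of either. The difference of 1.69 (SE 0.14, limma adjusted p = 4.99e-05), a 3.22-fold rise, was the largest in the set. Lamp1, one of the most abundant proteins of the lysosomal membrane, had 11.24, 11.44 and 11.50 in Rpt3-/- mice and 11.11, 11.11 and 11.29 in Rpt3+/+ mice. Rpt3-/- mouse 1 lay below Rpt3+/+ mouse 3, and the difference of 0.23 (95% interval -0.07 to 0.52, limma adjusted p = 0.274) was not called.

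Lamp2, the gene of Danon disease, had 9.12, 9.41 and 9.37 in Rpt3-/- mice and 8.66, 9.38 and 9.20 in Rpt3+/+ mice. The groups overlapped, with Rpt3+/+ mouse 1 alone at a low value, and the difference of 0.22 (95% interval -0.20 to 0.64, limma adjusted p = 0.472) was not called. Scarb2, which encodes the receptor LIMP-2 that carries glucocerebrosidase to lysosomes, was measured by 3 probes that did not run the same way. The brightest had 11.37, 11.19 and 11.28 in Rpt3-/- mice, below 11.65, 11.56 and 11.57 in Rpt3+/+ mice, a difference of -0.32 (limma adjusted p = 0.0989). The other probes, both designed on a RefSeq transcript, differed by 0.30 and 0.34, with overlapping groups for the first of them only. None of the 3 was called, so no direction can be given for Scarb2.

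Of the channels, exporters and membrane transporters, Slc17a5 was called higher. It encodes sialin, which exports sialic acid released from glycoproteins. On the arrays it had log2 intensities of 8.23, 8.03 and 8.29 in Rpt3-/- mice, against 7.60, 7.64 and 7.56 in Rpt3+/+ mice. All Rpt3-/- arrays lay above the narrow range of the Rpt3+/+ arrays, and the difference was 0.58 (SE 0.13, limma adjusted p = 0.0101). Mcoln1, the calcium channel of the lysosomal membrane, differed by -0.16. Ctns, the cystine exporter, differed by -0.14, and Cln3, a membrane protein lost in juvenile neuronal ceroid lipofuscinosis, by -0.31. None of these 3 was called, and Npc1, which moves cholesterol out through the membrane, had no named probe here.

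Of 6 tested genes of lipid and sterol handling 3 were called higher, where 12.7% of all tested genes were. Npc2 encodes the small soluble protein that hands cholesterol to Npc1. Its log2 intensity was 10.39, 10.14 and 10.18 in Rpt3-/- mice, against 9.45, 9.36 and 9.33 in Rpt3+/+ mice. The groups did not overlap, and the difference was 0.86 (SE 0.13, limma adjusted p = 0.00138), a 1.81-fold rise.

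Pla2g15, the lysosomal phospholipase A2, had 8.77, 8.38 and 8.78 in Rpt3-/- mice and 7.79, 8.19 and 7.94 in Rpt3+/+ mice. The groups did not overlap, although Rpt3-/- mouse 2 came close to Rpt3+/+ mouse 2, and the difference was 0.67 (SE 0.16, limma adjusted p = 0.0152). A dimmer second probe for Pla2g15, above background on 3 arrays, differed by -0.30 and was not called, and with the mean of both probes the gene was not called. Ppt1 encodes the thioesterase that removes palmitate from proteins under degradation. It reached 9.34, 9.10 and 9.42 in Rpt3-/- mice, against 8.46, 8.90 and 8.73 in Rpt3+/+ mice. All Rpt3-/- arrays lay above the Rpt3+/+ arrays, with a difference of 0.59 (SE 0.15, limma adjusted p = 0.0233).

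The other enzymes of this role stayed within 0.2 of no difference and were not called. They were Lipa, the acid lipase that splits cholesteryl esters and triglycerides (-0.07), Smpd1, the acid sphingomyelinase (-0.15), and Asah1, the acid ceramidase (-0.04). The 95% interval of Asah1, -0.60 to 0.52, was the widest of the set.

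Enzymes of glycosphingolipid breakdown moved in both directions. Hexa encodes the alpha subunit of beta-hexosaminidase, the enzyme of GM2 ganglioside breakdown that is lost in Tay-Sachs disease. The log2 intensities were 9.30, 9.10 and 9.47 in Rpt3-/- mice, against 8.23, 8.85 and 8.68 in Rpt3+/+ mice. The groups did not overlap and the difference was 0.70 (SE 0.18, limma adjusted p = 0.0201). Gm2a, the activator protein that presents GM2 to the enzyme, differed by 0.01 (95% interval -0.41 to 0.43), and its second probe by 0.13.

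Gla was the only gene of the set called lower. It encodes alpha-galactosidase A, the enzyme lost in Fabry disease. Its log2 intensity was 9.29, 9.41 and 9.10 in Rpt3-/- mice, against 10.04, 9.81 and 9.98 in Rpt3+/+ mice. Every Rpt3-/- array lay below every Rpt3+/+ array, with a difference of -0.68 (SE 0.14, limma adjusted p = 0.00666). Arsa, the arylsulfatase that removes sulfate from sulfatide, also had every Rpt3-/- array below, at -0.33, and was not called (limma adjusted p = 0.103). Glb1, the lysosomal beta-galactosidase, had every Rpt3-/- array above, at 0.41, and was not called (limma adjusted p = 0.0628). Galc, the galactosylceramidase, was near background on every array, and the only probe for Psap, the precursor of the saposin activators, is listed for several genes.

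For glycogen and the sugars of glycoproteins, 2 of 6 genes were called, both higher (33.3%). Among all tested genes, 12.7% were called higher and 6.56% lower. Man2b1 encodes the alpha-mannosidase that trims the mannose of N-linked glycans. It measured 9.69, 8.97 and 9.28 in Rpt3-/- mice, against 8.27, 8.47 and 8.42 in Rpt3+/+ mice. The Rpt3-/- arrays were widely spread but all above the Rpt3+/+ arrays, and the difference was 0.93 (SE 0.18, limma adjusted p = 0.00561), a 1.90-fold rise. A second probe for Man2b1 differed by 0.55 and was not called, with an adjusted p of 0.103 in a limma fit over 16958 probes.

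Fuca1, the alpha-fucosidase, had 9.56, 9.19 and 9.30 in Rpt3-/- mice and 8.96, 8.92 and 8.79 in Rpt3+/+ mice. The groups did not overlap, with a difference of 0.46 (SE 0.14, limma adjusted p = 0.0422). Gaa, the acid alpha-glucosidase of lysosomal glycogen breakdown, had 9.10, 9.47 and 9.61 in Rpt3-/- mice and 8.69, 9.35 and 9.16 in Rpt3+/+ mice. The groups overlapped, and the difference of 0.33 (95% interval -0.11 to 0.76, limma adjusted p = 0.291) was not called. Manba, the beta-mannosidase (-0.09), Neu1, the sialidase (-0.07), and Aga, which splits the bond between glycan and asparagine (-0.10), were not called.

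No gene of glycosaminoglycan breakdown was called, of 5 tested and 8 listed, where 12.7% of all tested genes were called higher and 6.56% lower. Gusb, the beta-glucuronidase, had the largest difference at 0.49 (limma adjusted p = 0.121), and its groups overlapped. It was the only one of the 5 at an unadjusted p under 0.05. Naglu, which removes N-acetylglucosamine from heparan sulfate, differed by 0.26, Idua, the alpha-L-iduronidase, by -0.09, and Ids, the iduronate sulfatase, by -0.26. Naglu was flagged near background in Rpt3+/+ mouse 2 and Idua in Rpt3-/- mouse 1. Sgsh and Arsb, sulfatases of heparan and dermatan sulfate, were near background on 4 or more arrays, and Hgsnat, the membrane acetyltransferase of heparan sulfate breakdown, had no named probe here.

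Galns, the sulfatase of keratan and chondroitin sulfate, had probes that disagreed on the call. The brighter, designed on an expressed sequence tag, had 9.64, 9.54 and 9.50 in Rpt3-/- mice, overlapping 9.45, 9.56 and 9.38 in Rpt3+/+ mice, a difference of 0.10 (limma adjusted p = 0.637). The dimmer, designed on the RefSeq transcript, had 8.0, 7.51 and 7.90 in Rpt3-/- mice, all above 6.74, 6.83 and 6.91 in Rpt3+/+ mice. Its difference was 0.97, with an adjusted p of 0.00191 in the limma fit over all 16958 probes. With the mean of its probes Galns was called higher, at 0.54 (limma adjusted p = 0.0143). It was also called with RefSeq probes preferred, a choice tried after the data were seen, which gave 11 genes called higher in place of 10.

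**Figure D2:**
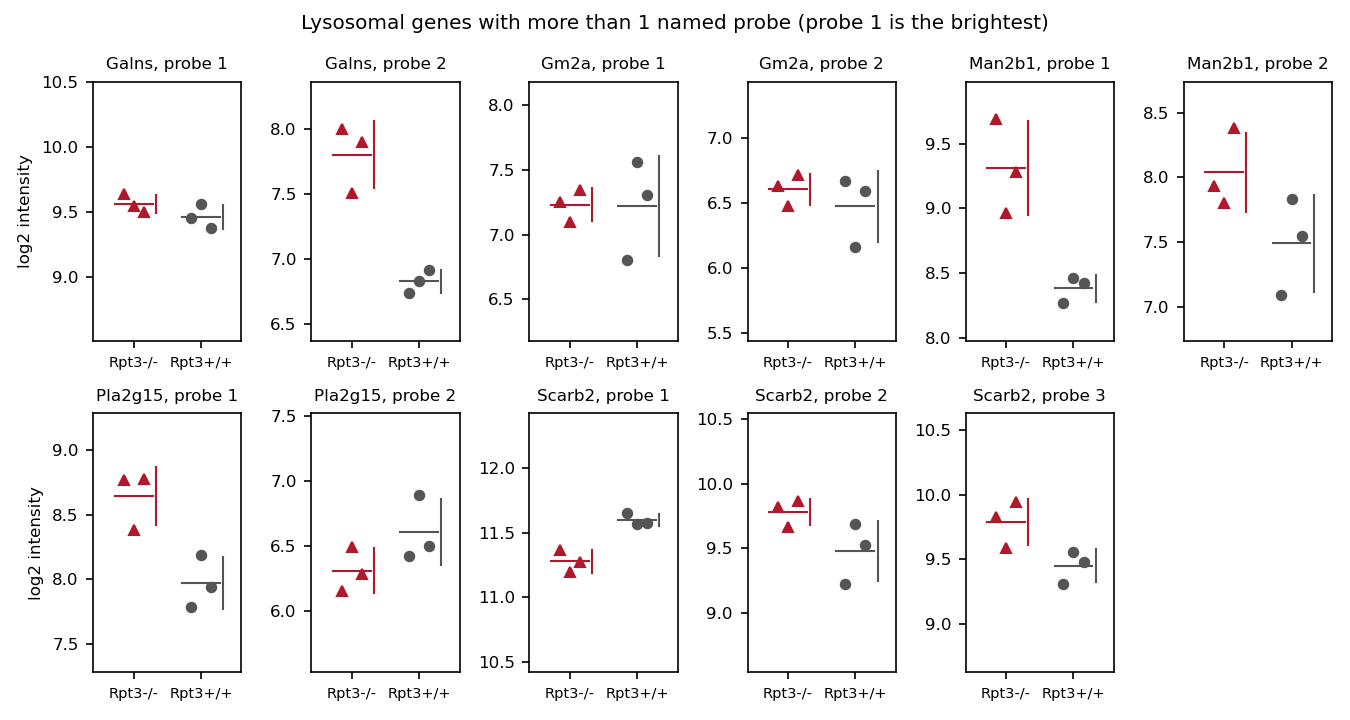
Log2 intensity on each array (vertical axis, window of equal height) for every tested probe of the 5 lysosomal genes with more than 1, with triangles for Rpt3-/- mice, circles for Rpt3+/+ mice, horizontal lines for means and vertical bars for the SD (n = 3 each). The probes of Galns, Man2b1 and Pla2g15 differ in call, and those of Scarb2 and Pla2g15 in the sign of the difference.

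Of the peptidase and the acid phosphatases, Acp5 was called higher. It encodes the tartrate-resistant acid phosphatase, which is abundant in osteoclasts and some macrophages. Its log2 intensity was 8.55, 7.77 and 8.40 in Rpt3-/- mice, against 7.25, 7.82 and 7.50 in Rpt3+/+ mice. It was the only called gene whose groups overlapped, since Rpt3-/- mouse 2 lay below Rpt3+/+ mouse 2, and the difference of 0.71 (SE 0.22, limma adjusted p = 0.0446) was nearest to the threshold. Acp2, the classical lysosomal acid phosphatase, was the nearest gene outside it. It had 8.02, 8.60 and 8.16 in Rpt3-/- mice, below 9.05, 8.67 and 8.68 in Rpt3+/+ mice, a difference of -0.54 (SE 0.18, limma adjusted p = 0.0603). Tpp1, the tripeptidyl peptidase lost in late infantile neuronal ceroid lipofuscinosis, differed by -0.03.

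In the tagging and sorting machinery the one call was Ap1s1, a small subunit of the adaptor AP-1 that packs mannose 6-phosphate receptors into vesicles. Its log2 intensity was 9.21, 9.19 and 9.21 in Rpt3-/- mice, against 8.85, 8.57 and 8.89 in Rpt3+/+ mice. The groups did not overlap, and the difference was 0.43 (SE 0.13, limma adjusted p = 0.0443). Igf2r, the large mannose 6-phosphate receptor, had 10.01, 9.82 and 10.00 in Rpt3-/- mice and 9.82, 9.24 and 9.40 in Rpt3+/+ mice. Rpt3-/- mouse 2 and Rpt3+/+ mouse 1 were level, and the difference of 0.46 (limma adjusted p = 0.0814) was not called.

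Sort1 encodes sortilin, a receptor that works without the mannose tag. It had 7.30, 6.92 and 7.23 in Rpt3-/- mice and 6.96, 6.82 and 6.79 in Rpt3+/+ mice. The value of Rpt3+/+ mouse 2, 6.82, was flagged near background. The groups overlapped and the difference was 0.30 (limma adjusted p = 0.180). Ap3d1, a subunit of the adaptor AP-3 that serves lysosomal membrane proteins, differed by 0.31 and Gnptab, which encodes subunits of the enzyme that makes the mannose tag, by -0.06, and neither was called. Gnptg, the remaining subunit, and M6pr, the small receptor, had only probes that are listed for several genes.

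**Figure D3:**
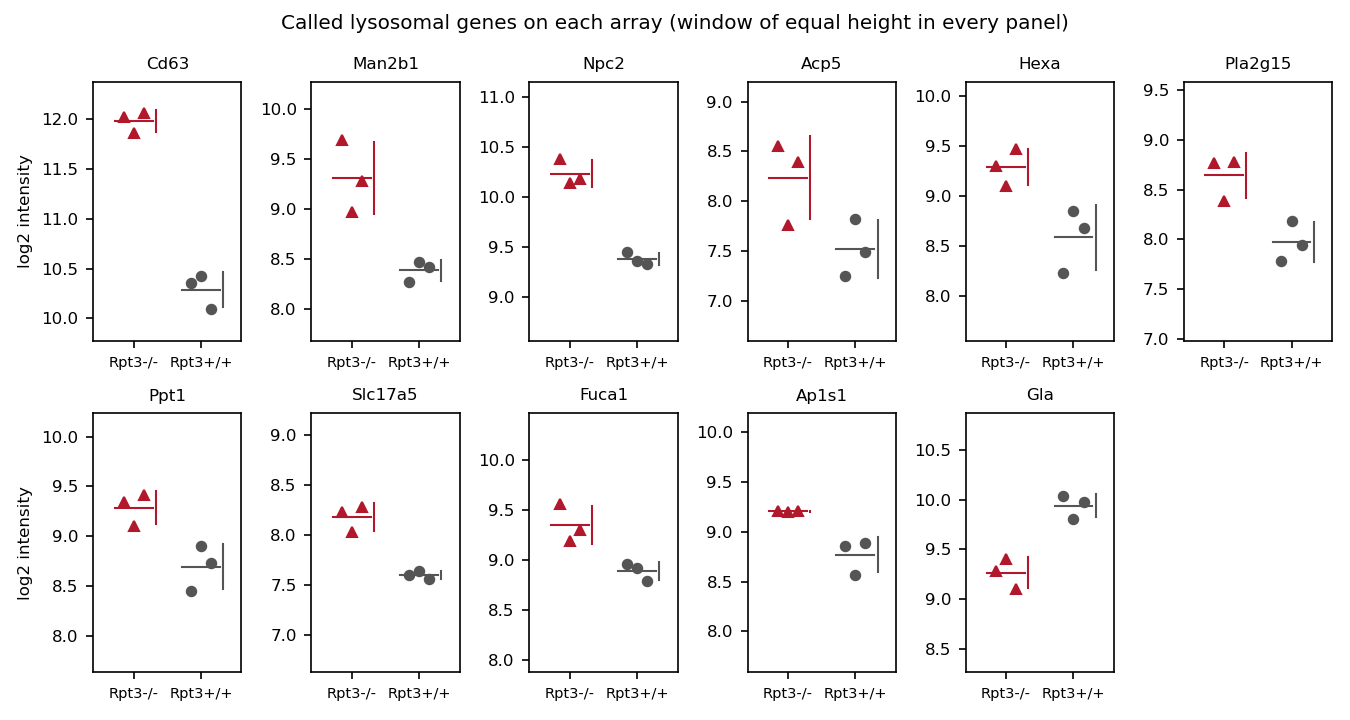
Log2 intensity on each array (vertical axis, window of equal height) for the 11 called lysosomal genes, with triangles for Rpt3-/- mice, circles for Rpt3+/+ mice, horizontal lines for means and vertical bars for the SD (n = 3 each). Acp5 is the gene whose groups overlap, and Gla the gene that lies lower in Rpt3-/- mice.

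The calls did not rest equally on all arrays. Cd63, Npc2, Man2b1 and Gla were called in all 6 fits that left out 1 array. Slc17a5 was not called without Rpt3-/- mouse 3 or without Rpt3+/+ mouse 3, with a limma adjusted p of up to 0.0623. Hexa, Pla2g15 and Ppt1 were not called without Rpt3-/- mouse 1, Rpt3-/- mouse 3 or Rpt3+/+ mouse 3. Fuca1 was called only without Rpt3+/+ mouse 1 or 2, Acp5 only without Rpt3-/- mouse 2 or Rpt3+/+ mouse 2, and Ap1s1 only without Rpt3+/+ mouse 1. The number of genes called higher was then 4 without Rpt3-/- mouse 1, 3 without Rpt3-/- mouse 3 and 3 without Rpt3+/+ mouse 3. Over all genes, calls higher fell as well, to 1258, 1155 and 1081 in these fits, compared with 1870 with all arrays.

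**Figure D4:**
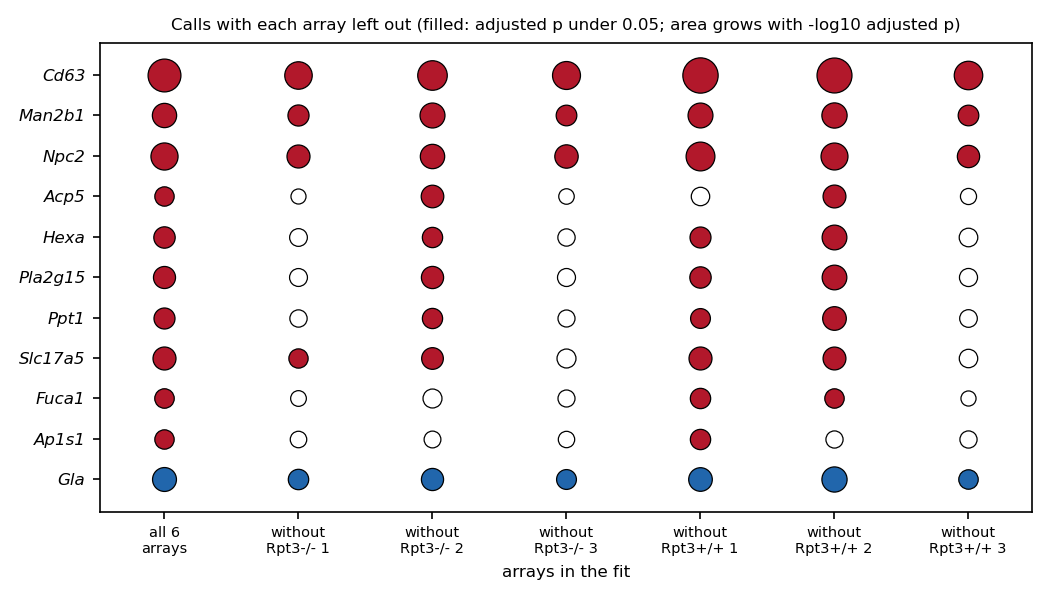
Calls of the 11 called lysosomal genes (rows) with all 6 arrays and with each array left out (columns). Filled circles mark an adjusted p under 0.05 in limma, red for higher and blue for lower in Rpt3-/- mice, and Cd63, Man2b1, Npc2 and Gla are filled in every column.

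The median SD of the 38 genes was 0.153 among the Rpt3-/- arrays and 0.170 among the Rpt3+/+ arrays, close to 0.145 and 0.179 for all tested genes. Rpt3-/- mouse 2 held the lowest Rpt3-/- value for 20 of the 38 genes (52.6%), compared with 33.4% of all tested genes. Rpt3+/+ mouse 2 held the highest Rpt3+/+ value for 21 genes (55.3%), compared with 45.4% of all tested genes. Both held for 13 of the 38 genes (34.2%), compared with 22.7% of all tested genes, and these included 7 of the 10 genes called higher, all but Npc2, Fuca1 and Ap1s1. Rpt3+/+ mouse 2 was also the dimmest array, and the part of brightness in this order was not tested. The tested genes spanned mean intensities from the percentile 7.29 to the percentile 97.2 of all tested genes, with a median percentile of 75.2 for called genes and 50.3 for genes not called.

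Other lists of lysosomal genes gave the following counts, where 12.7% of all tested genes were called higher and 6.56% lower. Of 13 tested cathepsins and legumain, the lysosomal proteases, 6 were called higher (46.2%) and 7 were not called, with a median difference of 0.58. The largest were Ctss (2.68), Lgmn (1.63), Ctsl (1.58) and Ctsz (1.26). Of 18 tested genes of the proton pump, which acidifies the lysosome, 7 were called higher (38.9%) and 1 lower (5.56%), with a median of 0.49. Atp6v1h (1.73), Atp6ap2 (1.16), Atp6v0c (0.97) and Atp6v1g1 (0.75) led this list, and the gene called lower was Atp6v0e2 (-0.48). Whether these lists differ from the 38 genes was not tested.

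Of 25 other lysosomal hydrolases and helper proteins, 9 were called higher (36%) and 1 lower (4%), with a median of 0.22. The largest were Grn (1.61), Creg1 (1.25), Prcp (0.96) and Dnase2a (0.83). Epdr1 (-0.73) was the gene called lower. Of 26 other membrane proteins and transporters 2 were called higher (7.69%) and 1 lower (3.85%). Litaf (1.14) and Tmem192 (0.77) were higher and Entpd4 (-0.91) was lower. Of 23 further sorting and coat genes, 7 were called higher (30.4%) and 1 lower (4.35%). Among those higher were Gga2 (1.56), which encodes an adaptor of mannose 6-phosphate receptors, and Cltb (1.49), which encodes a clathrin light chain. Vps29 (0.83), a retromer subunit, was also higher, and Sorl1 (-1.28), a sorting receptor, was lower.

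Of 16 tested regulators of the MiT/TFE family and of lysosomal nutrient sensing, 3 were called higher (18.8%) and 1 lower (6.25%). Among all tested genes these shares were 12.7% and 6.56%. The median difference of the 16 genes was -0.04. Lamtor4 (0.68), Lamtor2 (0.66) and Lamtor5 (0.45), subunits of the Ragulator complex that anchors mTORC1 at the lysosome, were higher, and Fnip1 (-0.46), a partner of folliculin, was lower. Tfeb had 8.32, 8.27 and 8.21 in Rpt3-/- mice and 8.74, 8.41 and 8.49 in Rpt3+/+ mice. All Rpt3-/- arrays lay below, with a difference of -0.28 that was not called (limma adjusted p = 0.178). Tfe3 differed by -0.07 and Mitf by -0.15, and neither was called. With all arrays centred on Actb, the median difference of each list named here was below 0. It ran from -0.71 for the regulators to -0.01 for the cathepsins and legumain, where that of all tested genes was -0.72. Actb itself was 0.45 higher in Rpt3-/- mice (limma adjusted p = 0.0294).

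Macrophages are rich in lysosomes. Of 25 tested macrophage markers 14 were called higher (56.0%), where 12.7% of all tested genes were. They were led by H2-Ab1 (2.47) and C1qa (2.13), and the other 11 markers were not called. Those not called ran from Cx3cr1 (-0.14) to Fcgr3 (0.56) and included Mrc1 (0.19), Cd163 (-0.04), Msr1 (0.02) and Trem2 (0.06). The median difference of the markers was 0.81, or -0.02 with Actb centring, where that of all tested genes was -0.72. With Actb centring 10 markers were called higher and 8 lower. Of all 14732 genes, 329 were then called higher and 10328 lower. The summed intensity of the 25 markers was 11002 to 16295 on the Rpt3-/- arrays and 5192 to 6170 on the Rpt3+/+ arrays. The summed intensity of the 10 lysosomal genes called higher was 8414 to 10057 on the Rpt3-/- arrays and 4445 to 4902 on the Rpt3+/+ arrays, a gap that the choice of called genes fixes. The 38 tested lysosomal genes include these 10. Over all 38 the sum was 23622 to 25336 on the Rpt3-/- arrays and 19949 to 20573 on the Rpt3+/+ arrays. Such sums of unlogged intensity weigh bright genes most. Cd63, the brightest of the 38 in Rpt3-/- mice, is in both sums, at a mean log2 intensity of 11.98, against 10.29 in Rpt3+/+ mice. The sums therefore do not show a rise shared by the whole set. The sums of the 27 genes not called, a set also fixed by the calls, overlapped between groups. They were 14428 to 15036 on the Rpt3-/- arrays and 14405 to 14864 on the Rpt3+/+ arrays. Rpt3-/- mouse 2 had the lowest Rpt3-/- sum of the markers, the 10 genes and the 38 genes. The highest Rpt3-/- sum was in mouse 1 for the markers and the 10 genes and in mouse 3 for the 38 genes. Among the Rpt3+/+ mice, mouse 2 had the lowest sum of the markers but the highest of the 10 genes and of the 38 genes. Among the listed markers that were not tested, Adgre1, Itgam, Ptprc and Ms4a7 were near background on 4 or more arrays. Cd68 and Csf1r had no named probe here. The part of macrophages in the lysosomal differences was not tested. In whole muscle, a change in the number of cells of a type and a change in RNA per cell cannot be told apart.

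Muscle fiber genes were bright on all arrays, with a summed intensity of 245022 to 258408 on the Rpt3-/- arrays and 291893 to 306477 on the Rpt3+/+ arrays over the 17 genes that had a value on every array. Of 18 fiber genes 1 was called higher (5.56%) and 7 lower (38.9%), with a median of -0.23. Beside these and the counts below, 12.7% of all tested genes were called higher and 6.56% lower. The fiber gene called higher was Myh1 (0.70), a fast myosin heavy chain. After quantile normalization Ckm, Tnnc2 and Atp2a1 each had the same value of 14.86 on at least 1 array. From 2 to 10 transcript probes per array were flagged saturated, and the part of saturation in the fiber values was not tested. Of 10 fibroblast genes 3 were called, all higher (Pdgfra 0.78, Mfap5 0.78 and Col3a1 0.55). Of 9 tested endothelial genes 0 were called in limma, with 1 at an unadjusted p under 0.05. Of 7 tested osteoclast genes Acp5 alone was called.

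**Figure D5:**
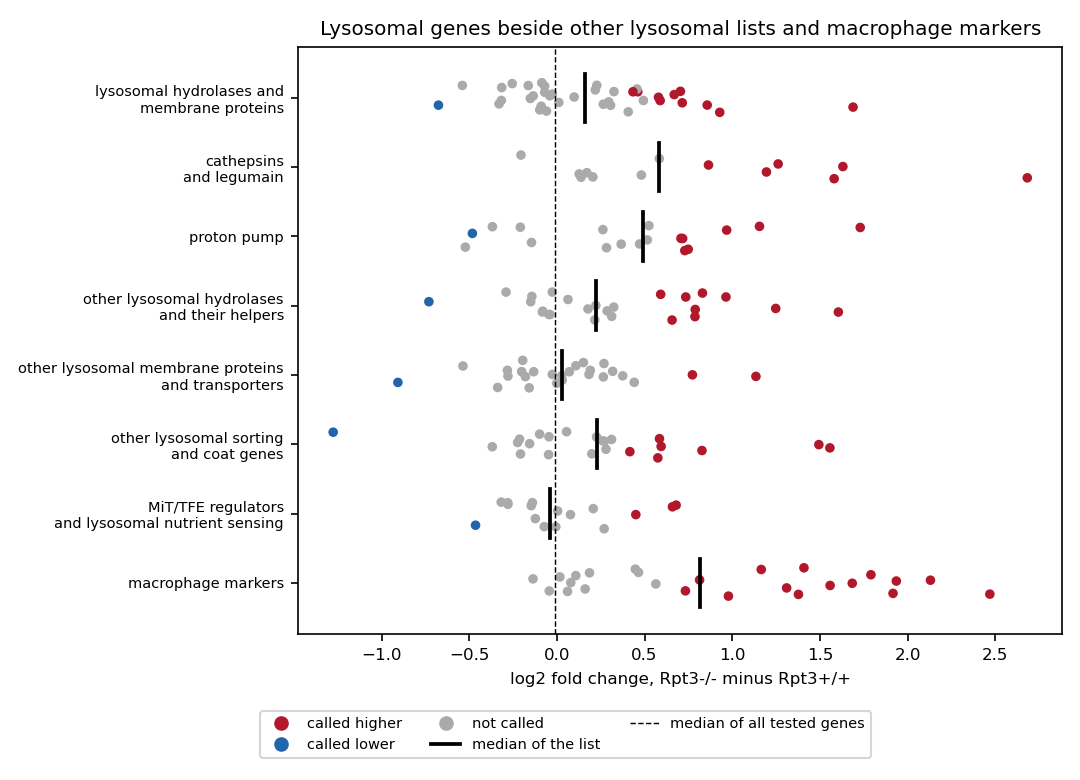
Difference in log2 intensity (horizontal axis, Rpt3-/- minus Rpt3+/+) for each tested gene of the lysosomal set, of 6 further lysosomal lists and of the macrophage markers (rows), with thick bars for list medians and a dashed line for the median of all tested genes. The set has a median of 0.16, between 0.58 for the cathepsins and legumain and -0.04 for the MiT/TFE regulators and nutrient sensing, and the macrophage markers have 0.81.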

How the data were processed

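Muscle RNA of 3 Rpt3-/- and 3 Rpt3+/+ mice was measured on 1 CodeLink array each. The deposited scanner reports (CodeLink Expression Analysis, version 5.0.0.31312, run by the authors) hold a spot intensity, a local background and a quality flag for each probe, not normalized between arrays. The authors' value table was used only as an alternative, and each of its columns ranked the probes as its own array did.

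Gene symbols came from the platform annotation, which gave 1 symbol for 21615 of 34967 transcript probes and several for 681, left unnamed here. Another 536 were named by RefSeq accession in the GRCm38.p6 table, and 12135 had no name. Background correction used normexp (offset 50) in limma 3.58.1 under R 4.3.3. Control spots were then removed, arrays were brought to common quantiles, and lmFit and eBayes were run on the log2 scale. Adjusted p-values are Benjamini-Hochberg over 14732 genes, and genes under 0.05 were called. The brightest probe stood for a gene. Spots flagged as masked or contaminated were left out. The steps were tested on simulated data.

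Lists were written by hand. Members and lists were chosen with earlier results of these data known. Every member is named, with values on each array for called genes, genes of muscle disease, Lamp1, sorting receptors, genes whose probes disagree and those next to the threshold. Further lists give up to 4 called genes. Alternatives covered background correction, normalization, the value table, filters, probe choice, variance models, the methods' t-test, the replicate number as a block, and fits without 1 array. Each array was a slide of its own, so a slide block could not be fitted. The number of arrays limits the precision.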

Additional observations from a re-analysis of the deposited data

How the results depend on the processing

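With all 6 arrays and quantile normalization 10 of the 38 lysosomal genes were called higher and 1 lower, with a median difference of 0.16. Fewer were called higher with plain background subtraction and with the authors' value table (5 each, in both cases Cd63, Man2b1, Npc2, Pla2g15 and Slc17a5). The methods' t-test called 10 higher and 3 lower unadjusted (Gla, Arsa and Scarb2), and 3 higher (Cd63, Npc2 and Slc17a5) and 1 lower after Benjamini-Hochberg adjustment. Genes called lower numbered 2 with an intensity trend and robust eBayes (Gla and Scarb2) and 4 with array quality weights and, added after seeing the data, at an unadjusted p of limma (Gla, Acp2, Arsa and Scarb2 in both). With median centring 13 were called higher and 1 lower. The median was 0.27 with median centring, 0.10 for the 35 genes above background on all arrays, 0.22 without a filter on dim probes and 0.25 with RefSeq probes preferred. Centring on Actb, itself 0.45 higher in Rpt3-/- mice, moved the median of all genes to -0.72 and that of the lysosomal genes to -0.50, with 1 gene higher (Cd63) and 19 lower. Leaving out 1 array gave 3 to 11 genes higher, 1 to 2 lower and a median of 0.11 to 0.19. The cause of these shifts was not tested.

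Over all genes, 1870 were called higher and 967 lower, so that 65.9% of calls were higher. This share was 81.0% with median centring (2556 higher, 600 lower) and 3.09% with Actb centring (329 higher, 10328 lower). Calls also moved by over 1.5 times with array quality weights (3007 and 2361), the methods' t-test unadjusted (2502 and 1636) and adjusted (940 and 427), an unadjusted p (2823 and 1894), and without Rpt3-/- mouse 1 (1258 and 475), Rpt3-/- mouse 3 (1155 and 543) or Rpt3+/+ mouse 3 (1081 and 388).

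With the replicate number as a block 8 lysosomal genes were called higher and 1 lower, with a median of 0.16, and 1722 and 873 over all genes. Deviations from the group means correlated across genes at 0.126, -0.438 and 0.0976 for arrays with the same number 1, 2 and 3. Between arrays with different numbers these correlations ran from -0.4848 to 0.4705. They cannot tell whether samples were paired or handled together, since deviations within a group depend on one another. Of the values of single lysosomal genes under all alternatives but Actb centring, 871 in all, 767 kept their sign and their side of the threshold, 49 were no longer called and 27 became called. The other 28, of 11 genes not called with all arrays or under the alternative, changed sign, the farthest Scarb2 (-0.32, against 0.30 with RefSeq probes preferred). Among these values, in which Actb centring was not counted, none of a called gene changed sign.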
